A study of Rattus norvegicus with 24 samples.

Results

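The genes described here are the nuclear and mitochondrial genes of the respiratory chain in cultured rat striatal neurons. They were chosen by name and by chromosome: every gene whose symbol begins with Nduf, Uqcr, Cox4 to Cox8 or Atp5, the genes Sdha to Sdhd, and every gene on chromosome MT. The rule gave 135 of the 32883 genes in the expression tables, of which 98 are nuclear and 37 are mitochondrial. The rule itself uses no measured value.

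The respiratory chain sits in the inner mitochondrial membrane and passes electrons from NADH and succinate to oxygen, pumping protons that drive the ATP synthase. Complex I takes electrons from NADH, complex II from succinate, complex III passes them to cytochrome c, and complex IV passes them to oxygen. Most subunits are encoded in the nucleus, made in the cytosol and imported, while a small set of hydrophobic core subunits is encoded on the mitochondrial chromosome and transcribed there by a dedicated polymerase. Neurons use this chain for most of their ATP, much of it spent on ion pumping and synaptic transmission.

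RNA was sequenced from neonatal rat striatal neurons after 7 days in culture, with rRNA-depleted, stranded libraries of total RNA. Each group received a pair of additions, with the vehicle DMSO in place of an absent compound: SKF, a dopamine D1 receptor agonist, and JQ1 or iBD2, inhibitors of bromodomains, protein modules that read acetyl-lysine. Experiment 1 compared SKF+JQ1, JQ1, SKF and DMSO at 60 min, experiment 2 compared SKF+iBD2, iBD2, SKF and DMSO at 60 min, and experiment 3 compared SKF+JQ1, JQ1, SKF and DMSO at 24 h. The labels give no doses. Each of the 12 groups had 2 libraries, except SKF+iBD2, of which 1 library was analysed here. That gave 23 libraries of the 24 labelled. Since no label states separate cultures for the libraries of a group, p-values measure only how these libraries vary, and that variation may be technical.

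Aligned reads came to between 7.23 and 11.4 Gb per library in experiment 1, between 4.36 and 7.20 Gb in experiment 2 and between 6.48 and 14.9 Gb in experiment 3. Markers of neurons were found for 12 of 12 genes looked for, and their summed level at 24 h is given in FPKM (fragments scaled to transcript length and to library size). It was 2276 and 2477 FPKM with SKF+JQ1 and 2395 and 2510 FPKM with JQ1. Without JQ1 it was 2697 and 2752 FPKM with SKF, and 2637 and 2818 FPKM with DMSO. On this deposited scale it was lower in every library with JQ1 than in any without. After division by size factors, the scaling used for the tests below, the JQ1 and DMSO libraries overlapped. Summed endothelial markers reached at most 0.16 FPKM in any library. Summed microglial markers at 24 h were 1.58 and 0.803 FPKM with SKF+JQ1, 9.59 and 6.50 FPKM with JQ1, 27.1 and 19.7 FPKM with SKF, and 56.4 and 43.4 FPKM with DMSO. All 7 microglial markers were lower with JQ1 in both arms at 24 h, and Aif1 was at 0 in both SKF+JQ1 libraries. Summed oligodendrocyte lineage markers at 24 h were 60.25 and 47.4 FPKM with SKF+JQ1 and 52.3 and 42.3 FPKM with JQ1. They were 38.8 and 37.6 FPKM with SKF and 46.1 and 38.5 FPKM with DMSO. The part of any cell type in any result below was not tested.

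Many nuclear respiratory chain genes carry GC-rich promoters with sites for NRF1, for ETS-family factors such as GABP, and for YY1. RefSeq promoters (build GRCr8, 250 bases before to 50 after the start) were matched for 82 of the 94 symbols of the nuclear genes. The promoters of 4 genes, picked after their values were seen as 2 that fell and 2 that rose with JQ1 at 24 h with and without SKF, are shown 5′ to 3′ on the gene's strand. Capitals mark every match, on either strand, to the NRF1 core (GCGCA followed at once by its reverse complement), CCGGAAG (ETS core), AAGATGG (YY1 core) or GGGCGG (GC box). Atp5f1e and Ndufs4 were lower with JQ1, and Ndufa6 and Ndufv3 were higher. They lie at chr3:183680123-183680422 (minus strand), chr2:47794865-47795164 (minus), chr7:115750268-115750567 (minus) and chr20:9613536-9613835 (plus).
Atp5f1e: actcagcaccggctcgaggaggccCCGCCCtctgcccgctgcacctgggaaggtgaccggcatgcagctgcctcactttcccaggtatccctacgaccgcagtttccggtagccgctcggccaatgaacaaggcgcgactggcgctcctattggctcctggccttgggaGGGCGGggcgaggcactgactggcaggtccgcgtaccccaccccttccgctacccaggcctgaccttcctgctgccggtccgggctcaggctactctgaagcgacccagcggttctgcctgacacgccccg
Ndufs4: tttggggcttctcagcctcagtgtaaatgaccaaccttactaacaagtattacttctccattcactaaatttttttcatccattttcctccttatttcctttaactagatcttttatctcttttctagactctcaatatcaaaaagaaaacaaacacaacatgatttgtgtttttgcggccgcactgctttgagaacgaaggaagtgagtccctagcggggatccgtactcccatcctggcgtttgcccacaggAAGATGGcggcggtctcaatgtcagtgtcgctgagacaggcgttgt
Ndufa6: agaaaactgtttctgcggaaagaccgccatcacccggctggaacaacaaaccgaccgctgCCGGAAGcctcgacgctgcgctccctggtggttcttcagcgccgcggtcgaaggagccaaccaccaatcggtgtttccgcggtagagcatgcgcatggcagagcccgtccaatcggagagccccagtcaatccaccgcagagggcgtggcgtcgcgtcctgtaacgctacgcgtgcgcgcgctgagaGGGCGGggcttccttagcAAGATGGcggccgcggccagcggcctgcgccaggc
Ndufv3: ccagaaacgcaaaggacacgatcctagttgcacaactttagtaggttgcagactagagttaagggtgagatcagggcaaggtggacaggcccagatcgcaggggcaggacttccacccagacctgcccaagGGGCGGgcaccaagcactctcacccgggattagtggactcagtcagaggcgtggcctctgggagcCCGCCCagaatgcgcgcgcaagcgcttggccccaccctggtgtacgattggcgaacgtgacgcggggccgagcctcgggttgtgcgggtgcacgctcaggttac

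The Atp5f1e promoter held a pair of GC boxes, and so did that of Ndufv3, which moved the other way. The Ndufs4 promoter held only the YY1 core, just after its start, and Ndufa6 held a YY1 core at a like place together with an ETS core and a GC box. The NRF1 core stood in 6 of the 82 promoters (7.32%), against 0.852% of all 33469 RefSeq promoters. The ETS core stood in 22 (26.8%, against 8.75% of all), the YY1 core in 20 (24.4%, against 7.01%) and the GC box in 35 (42.7%, against 33.1%). The 6 promoters with the NRF1 core were those of Atp5mc2, Atp5me, Atp5po, Ndufa11, Ndufaf4 and Ndufaf5. Split by the response to JQ1 at 24 h, the ETS core stood in 3 of 11 promoters of higher genes (27.3%), 8 of 29 of lower genes (27.6%) and 11 of 37 of genes that did not pass the test (29.7%). The YY1 core stood in 1 of 11 (9.09%), 9 of 29 (31%) and 9 of 37 (24.3%) of the same classes. The GC box stood in 3 of 11 (27.3%), 9 of 29 (31%) and 19 of 37 (51.4%), and the NRF1 core in 0 of 11, 2 of 29 (6.9%) and 4 of 37 (10.8%). A match is a run of letters and not a measured binding site.

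Of the 98 nuclear genes, 91 reached 0.5 FPKM in at least 2 libraries and were tested: 39 of 40 complex I subunits (grouped by symbol, with 38 symbols), 8 of 8 complex I assembly factors, 4 of 4 complex II genes, 9 of 9 complex III genes, 14 of 20 complex IV genes and 17 of 17 ATP synthase genes. The 7 that did not were Ndufs6, with at most 0.184 FPKM in any library, and isoforms or copies of complex IV subunits. These were Cox4i2 (at most 0.238 FPKM), Cox7a1 (0.364 FPKM) and Cox8b (0.529 FPKM), known from lung, muscle and heart, Cox7b2 (0.274 FPKM) and Cox8c (0 in every library), known from testis, and Cox6c-ps1 (0.0536 FPKM). Of the 37 mitochondrial genes, 15 were tested, the 13 mRNAs named Mt- and 2 longer genes without a symbol. The 22 shorter genes, of 60 to 75 nt, have no symbol in the tables either and were too short to test. Of these, AY172581.19 had the highest level, between 2930 and 3737 FPKM.

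The mitochondrial mRNAs stood far above their nuclear partners. In the DMSO libraries of experiment 1 their median level was 7881 FPKM, while the nuclear genes had medians of 36.4 FPKM for complex I subunits, 5.87 FPKM for its assembly factors, 48.9 FPKM for complex II, 53.9 FPKM for complex III, 62.2 FPKM for complex IV and 107 FPKM for the ATP synthase. Mt-nd6, a complex I subunit and the single mitochondrial mRNA encoded on the opposite strand to the rest, was the lowest mitochondrial mRNA in each experiment, at 488, 275 and 488 FPKM with DMSO in experiments 1, 2 and 3. Among nuclear genes of experiment 1, Atp5f1b, the catalytic beta subunit of the ATP synthase, led its complex at 323 FPKM. Atp5pf, coupling factor 6, was the lowest there at 15.0 FPKM. Cox6a1, the general form of a small complex IV subunit, led complex IV at 232 FPKM, and Ndufa4, placed with complex I by its symbol but found in complex IV, led the Nduf genes at 196 FPKM. The complex II genes lay close together, between 39.6 FPKM for Sdha, the flavoprotein, and 61.7 FPKM for Sdhc, a membrane anchor.

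**Figure D1:**
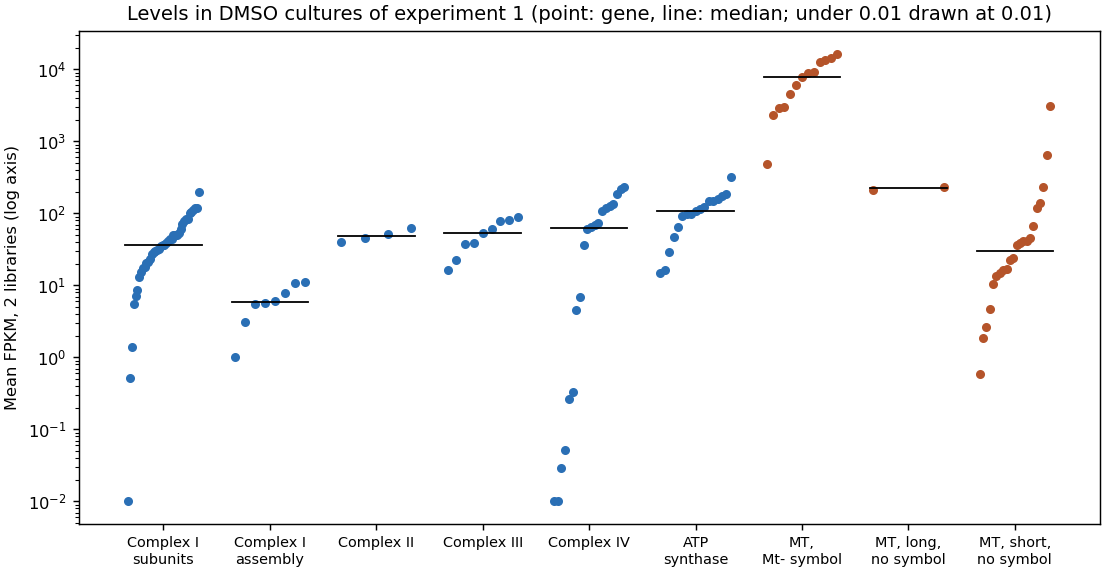
Mean FPKM (log axis) of each gene in the 2 DMSO libraries of experiment 1, grouped by role. Each point is 1 gene, lines are medians, and genes under 0.01 FPKM are drawn at 0.01. The mitochondrial mRNAs, with a median of 7881 FPKM, stand above every nuclear group.

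The mitochondrial share of the RNA differed between experiments more than between treatments. Genes on chromosome MT took between 8.05 and 9.79% of aligned bases in experiment 1, between 5.31 and 5.87% in experiment 2 and between 8.58 and 10.7% in experiment 3. The summed FPKM of the 13 mitochondrial mRNAs was 14.4 to 19.9 times that of the 98 nuclear genes in experiment 1 and 7.20 to 8.27 times in experiment 2. The drop was uneven across the chromosome. With DMSO, the level in experiment 2 over that in experiment 1 was lowest for Mt-atp8 (0.364) and Mt-atp6 (0.460) and highest for Mt-co2 (0.703) and Mt-co1 (0.754). Over the 91 tested nuclear genes the same ratio had a median of 1.27. That ratio was not taken over all genes, so the median is not shown to be particular to these genes. Genes on chromosome MT held 12.6 and 13.3% of all FPKM with DMSO in experiment 2, against 18.6 and 23.4% in experiment 1. Between experiments 3 and 1 the highest such ratio of a mitochondrial mRNA was 1.09. Summed astrocyte markers (8 genes) were 134 to 144 FPKM in experiment 2 and 304 to 421 FPKM in experiment 1. Microglial sums were 25.7 to 32.4 FPKM in experiment 2 and 39.3 to 57.5 FPKM in experiment 1. Neuron sums were 2760 to 2861 FPKM in experiment 2 and 2719 to 2824 FPKM in experiment 1. The source of the mitochondrial difference between experiments was not tested. Treatment effects below were taken within an experiment, and where effects are set against each other across experiments this is said.

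**Figure D2:**
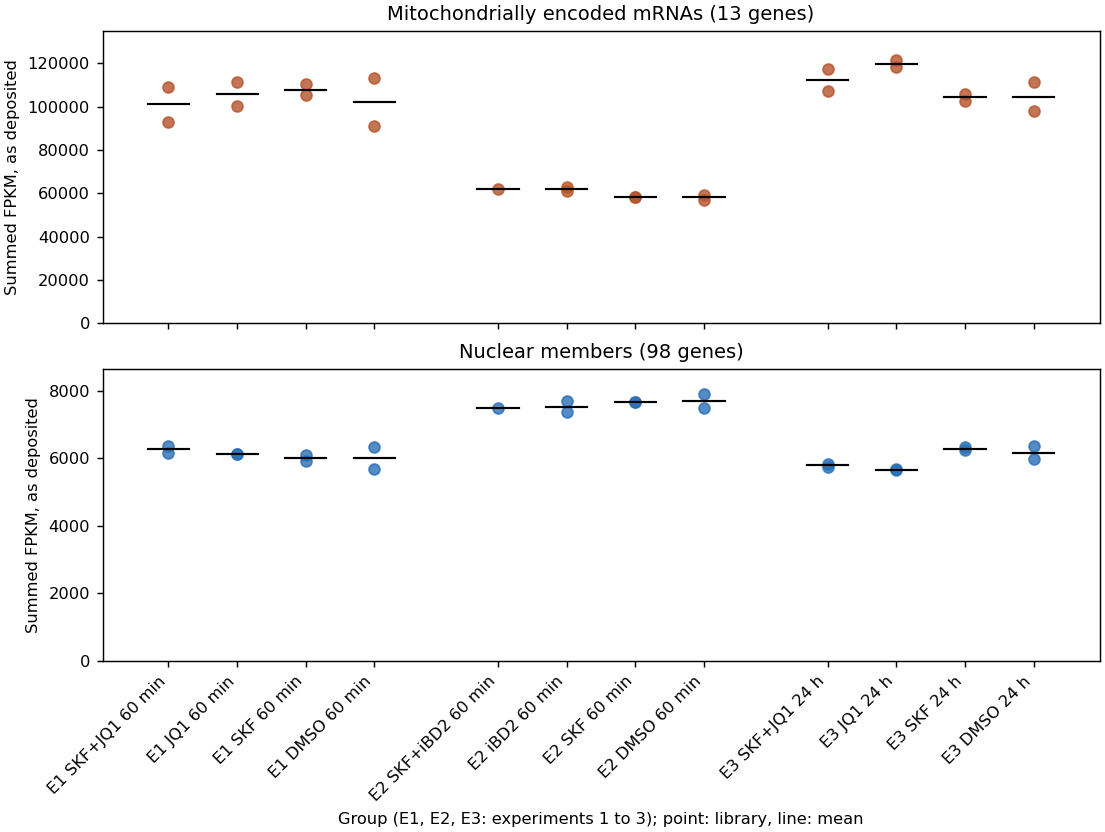
Summed FPKM per library of the 13 mitochondrial mRNAs (one panel) and of the 98 nuclear genes (the other), by group within each experiment. Points are libraries and lines are group means; experiment 2 has the lowest mitochondrial and the highest nuclear sums.

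JQ1 for 24 h moved nuclear respiratory chain genes in both directions. It raised 11 of 13 mitochondrial mRNAs, a count that was 4 on the deposited FPKM scale, 0 with scaling to genes off chromosome MT, and 1 without DMSO replicate 5 or either JQ1 library of experiment 3. Against DMSO, 44 of the 91 tested nuclear genes changed, 14 higher and 30 lower, and 47 did not pass the test (limma, adjusted p under 0.05). Over all 13999 genes tested, 56.7% changed, 28.1% higher and 28.6% lower, so the nuclear count is no larger than the background. The median log2 change was -0.05 for the nuclear genes and 0.01 for all genes. In bulk RNA, fewer cells of a type and less RNA per cell cannot be told apart. FPKM values are given as deposited unless called scaled, while log2 changes and tests are on FPKM divided by size factors, which at 24 h were 0.953 and 0.947 with JQ1, against 1.04 and 0.995 with DMSO. After that scaling, 77.1% of all genes and 65.9% of the nuclear genes did not overlap between JQ1 and DMSO libraries, so a lack of overlap is common here. The split depended on scaling: 9 were higher and 39 lower on the deposited FPKM scale, and 7 were higher and 49 lower when libraries were scaled to the FPKM of genes off chromosome MT. Those scalings moved the median of all genes by -0.09 and -0.14.

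Among the Nduf genes grouped by symbol as complex I subunits, 7 were higher, 13 lower and 19 not called. These are counts of genes and not of distinct subunits. The 7 hold both genes named Ndufv3, the 13 hold Ndufa4l2, and the 19 hold Ndufa4 and both genes named Ndufa10l1. Ndufa6, an accessory subunit of the matrix arm (ENSRNOG00000008569, Rnor_6.0 chr7:123583062-123586919, minus strand), had the largest rise. It had 57.9 and 60.4 FPKM with JQ1, against 41.8 and 36.7 FPKM with DMSO, a log2 change of 0.69 ± 0.05 (SE; adjusted p = 1.4e-08). The JQ1 libraries lay well above the DMSO libraries, with no overlap. Ndufv3, a small subunit of the NADH-oxidising module, had 46.6 and 43.9 FPKM with JQ1, against 38.0 and 35.0 FPKM with DMSO, a log2 change of 0.40 ± 0.07 (adjusted p = 7.6e-05). A single-exon gene of the same symbol also rose, by 0.29 ± 0.12 (adjusted p = 0.039), and reads may be split between the pair. Ndufs5 (0.38), Ndufb2 (0.36), Ndufa7 (0.26) and Ndufb10 (0.24), all accessory subunits, rose on the same log2 scale.

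The subunits that fell included some that carry electrons. Ndufs8, which holds iron-sulphur clusters on the path to quinone, had 11.6 and 10.9 FPKM with JQ1, against 20.2 and 15.8 FPKM with DMSO, a log2 change of -0.55 ± 0.09 (adjusted p = 1e-04). Every JQ1 library was below every DMSO library. Ndufs1, the largest iron-sulphur subunit, fell by 0.22 ± 0.05 (adjusted p = 0.00061). Ndufv1, the flavin-binding subunit, had 31.8 and 32.7 scaled FPKM with JQ1, against 32.2 and 31.6 scaled FPKM with DMSO, a log2 change of 0.02 ± 0.06, and did not pass the test.

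Accessory genes fell as well. Ndufs4, a matrix-arm subunit whose loss in mice and humans causes a Leigh-like encephalopathy (ENSRNOG00000011383, chr2:46372518-46476203, minus strand), had 70.0 and 68.6 FPKM with JQ1, against 99.9 and 114 FPKM with DMSO. Its log2 change was -0.52 ± 0.07 (adjusted p = 1.4e-05), and the groups did not overlap. Ndufa9 (39.0 and 39.1 FPKM with JQ1, 55.6 and 52.5 FPKM with DMSO) fell by 0.37 and Ndufb4 (55.8 and 51.9 FPKM with JQ1, 78.4 and 72.3 FPKM with DMSO) by 0.38 on the log2 scale. Ndufa4l2, a low-oxygen-inducible relative of Ndufa4, was low throughout, at 0.785 and 0.623 FPKM with JQ1, against 1.73 and 1.36 FPKM with DMSO. It fell by 0.70 ± 0.11 on the log2(FPKM + 0.5) scale, which understates changes of low genes (adjusted p = 4.9e-05). Ndufa4 itself had 208 and 211 scaled FPKM with JQ1, against 198 and 196 scaled FPKM with DMSO, and did not pass the test (0.09).

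Of the 8 Ndufaf genes, which help assemble complex I and are not part of it, 1 rose, 3 fell and 4 were not called. Ndufaf7, a methyltransferase needed for complex I assembly, had 7.78 and 7.42 FPKM with JQ1, against 6.46 and 5.47 FPKM with DMSO, a log2 change of 0.42 ± 0.07 (adjusted p = 8.8e-05). Ndufaf1, a component of the assembly complex for the membrane arm, had 3.88 and 3.96 FPKM with JQ1, against 5.92 and 6.07 FPKM with DMSO, a log2 change of -0.47 ± 0.07 (adjusted p = 4e-05). Ndufaf4 fell by the same amount, -0.47 ± 0.08 (adjusted p = 0.00016). The JQ1 libraries were above those with DMSO for Ndufaf7 and below them for Ndufaf1 and Ndufaf4.

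In complex II, 1 of 4 genes fell and 3 did not pass the test. Sdha, the subunit that oxidises succinate (ENSRNOG00000013331, chr1:31545631-31570601, plus strand), had 30.0 and 27.7 FPKM with JQ1, against 41.0 and 40.7 FPKM with DMSO, a log2 change of -0.40 ± 0.05 (adjusted p = 1.4e-06). Its partners moved less: Sdhb, the iron-sulphur subunit, had -0.10 ± 0.07 (adjusted p = 0.23), Sdhc -0.05 and Sdhd 0.08. The Sdha libraries with JQ1 were well below those with DMSO and did not overlap them.

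In complex III, 4 of 9 genes rose and 2 fell. Uqcrh, the hinge protein that sits by cytochrome c1, had 80.0 and 76.8 FPKM with JQ1, against 66.3 and 64.1 FPKM with DMSO, a log2 change of 0.36 ± 0.05 (adjusted p = 9.5e-06). Uqcr11 (0.30) and Uqcr10 (0.19), both small accessory subunits, rose too. Uqcrc2, a large core protein, had 64.1 and 64.5 FPKM with JQ1, against 84.4 and 82.7 FPKM with DMSO, a log2 change of -0.28 ± 0.05 (adjusted p = 6.1e-05). Uqcrfs1, the Rieske iron-sulphur protein, fell by 0.21 (adjusted p = 0.0063). The JQ1 libraries were above those with DMSO for Uqcrh and below them for Uqcrc2, as were 65.9% of the nuclear genes in either direction. Uqcrc1, the partner of Uqcrc2, had -0.12 and missed the threshold (adjusted p = 0.067).

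In complex IV, 1 of 14 tested genes rose, 4 fell and 9 were not called. The paired isoforms of subunit 6a went opposite ways. Cox6a1, the general isoform, had 267 and 265 FPKM with JQ1, against 234 and 230 FPKM with DMSO, a log2 change of 0.29 ± 0.04 (adjusted p = 2.2e-05). Cox6a2, the isoform of heart and skeletal muscle (ENSRNOG00000019851, chr1:199624037-199624783, minus strand), had 4.68 and 3.69 FPKM with JQ1, against 6.47 and 7.75 FPKM with DMSO, a log2 change of -0.62 ± 0.17 (adjusted p = 0.0056). Both isoforms were without overlap between groups, and Cox6a1 remained far the more abundant per length. Cox6b2, an isoform known from testis, fell by 0.41 ± 0.13 (adjusted p = 0.015), Cox5b by 0.22 and Cox8a by 0.14. With SKF present Cox6b2 was not called, at 3.71 and 3.16 scaled FPKM with SKF+JQ1, against 3.98 and 3.88 scaled FPKM with SKF. Cox4i1, the general regulatory subunit, had 123 and 124 scaled FPKM with JQ1, against 125 and 114 scaled FPKM with DMSO (0.04 ± 0.07), and Cox5a had -0.01; neither passed the test.

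In the ATP synthase, 1 of 17 genes rose, 7 fell and 9 were not called. Atp5f1e, the epsilon subunit of the central stalk (ENSRNOG00000049912, chr3:172563105-172566010, minus strand), had 77.9 and 79.0 FPKM with JQ1, against 132 and 118 FPKM with DMSO, a log2 change of -0.57 ± 0.06 (adjusted p = 1e-06). Atp5f1d, the stalk's delta subunit, rose by 0.17 (adjusted p = 0.019). The catalytic core did not pass the test: Atp5f1b had 322 and 331 scaled FPKM with JQ1, against 339 and 310.1 scaled FPKM with DMSO (0.01 ± 0.06), and Atp5f1a, the alpha subunit, had 0.11 ± 0.06 (adjusted p = 0.13). The JQ1 libraries of Atp5f1e lay far below those with DMSO, while those of Atp5f1b overlapped them. Atp5f1c, the gamma subunit, was near the threshold (-0.12 ± 0.05, adjusted p = 0.046). Its call was lost and its sign turned when the test was run on reads estimated from coverage. Its transcript of 1084 nt had 79.5 and 77.1 FPKM with JQ1, against 97.6 and 94.3 FPKM with DMSO, whereas its transcript of 5682 nt had 8.23 and 8.26 FPKM with JQ1, against 4.96 and 4.79 FPKM with DMSO.

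**Figure D3:**
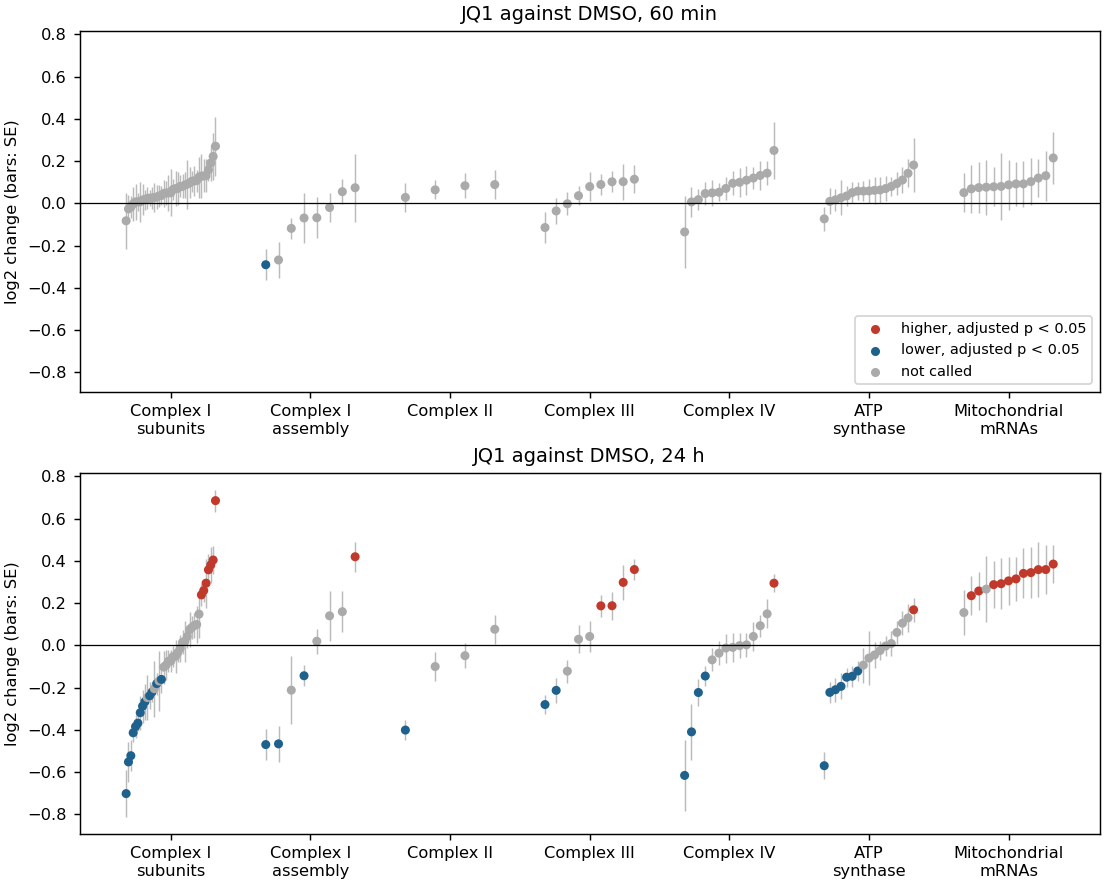
Log2 change (± SE) of each tested gene with JQ1 against DMSO, grouped by complex, at 60 min (upper panel) and 24 h (lower panel). Red points are higher, blue lower and grey not called; at 24 h every nuclear group except complex II holds genes called in both directions, and at 60 min 1 nuclear gene is called.

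All 13 mitochondrial mRNAs had higher means with JQ1 at 24 h, and 11 of 13 passed the test (28.1% of all genes were called higher). Their median log2 change was 0.31, with single changes of 0.16 to 0.39. These mRNAs are not independent, so 11 of 13 is not a count of separate results. Replicate 6 minus replicate 5, after size factors, had a median log2 difference over them of 0.25 with DMSO and -0.02 with JQ1. In the DMSO libraries of experiment 1 that difference was 0.36. Mt-nd2, a membrane-arm subunit of complex I, had 7755 and 7408 FPKM with JQ1, against 6015 and 6402 FPKM with DMSO, a log2 change of 0.39 ± 0.09 (adjusted p = 0.0016). Mt-co1, the catalytic subunit of complex IV, had 16214 and 15768 FPKM with JQ1, against 13244 and 14261 FPKM with DMSO, a change of 0.32 ± 0.10 (adjusted p = 0.016). For both, the gap between the groups was wider than the spread within either. Mt-cyb, cytochrome b of complex III, had 9732 and 9546 FPKM with JQ1, against 7403 and 8722 FPKM with DMSO, a change of 0.36 ± 0.12 (adjusted p = 0.015). The other complex I mRNAs rose by 0.36 (Mt-nd5), 0.34 (Mt-nd4l), 0.34 (Mt-nd4), 0.29 (Mt-nd1) and 0.29 (Mt-nd6), and Mt-atp6, Mt-co2 and Mt-co3 by 0.31, 0.26 and 0.24.

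The exceptions were Mt-nd3 and Mt-atp8. Mt-nd3 had 2732 and 2521 FPKM with JQ1, against 2320 and 2736 FPKM with DMSO (0.16 ± 0.11, adjusted p = 0.24), and Mt-atp8 had 19507 and 18409 FPKM with JQ1, against 14925 and 19009 FPKM with DMSO (0.27 ± 0.16, adjusted p = 0.16). On these deposited values both overlapped between groups. After size factors Mt-atp8 had 20471 and 19443 with JQ1, against 14392 and 19106 with DMSO. On that scale 12 of the 13 mRNAs did not overlap (92.3%, against 77.1% of all genes), and Mt-nd3 did. Mt-atp8 shares 43 nt with Mt-atp6, and Mt-nd5 shares 23 nt with Mt-nd6 on the opposite strand. The sources used here do not say whether counting was by strand, so reads of such pairs may be shared. The 2 longer genes without a symbol, AY172581.9 (MT:68-1025) and AY172581.24 (MT:1094-2664), varied widely within groups: AY172581.24 had 372 and 68.9 FPKM with JQ1, against 188 and 110 FPKM with DMSO (0.25 ± 1.03). AY172581.9 had 344 and 57.2 FPKM with JQ1, against 186 and 95.2 FPKM with DMSO (0.17 ± 1.15).

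The mitochondrial calls rested on the scaling and on single libraries. With FPKM as deposited, 4 were called (Mt-nd2, Mt-cyb, Mt-co1 and Mt-nd4), and with libraries scaled to genes off chromosome MT 0 were called, with a median change of 0.15. Leaving out DMSO replicate 5, JQ1 replicate 5 or JQ1 replicate 6 of experiment 3 left 1 call, and leaving out DMSO replicate 6 gave 13. Relative to the nuclear genes, the summed mitochondrial mRNAs were 21.4 and 20.9 times as high with JQ1, against 15.4 and 18.6 times with DMSO. At 60 min the DMSO libraries of experiment 1 alone spanned 14.4 to 19.9 times.

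**Figure D4:**
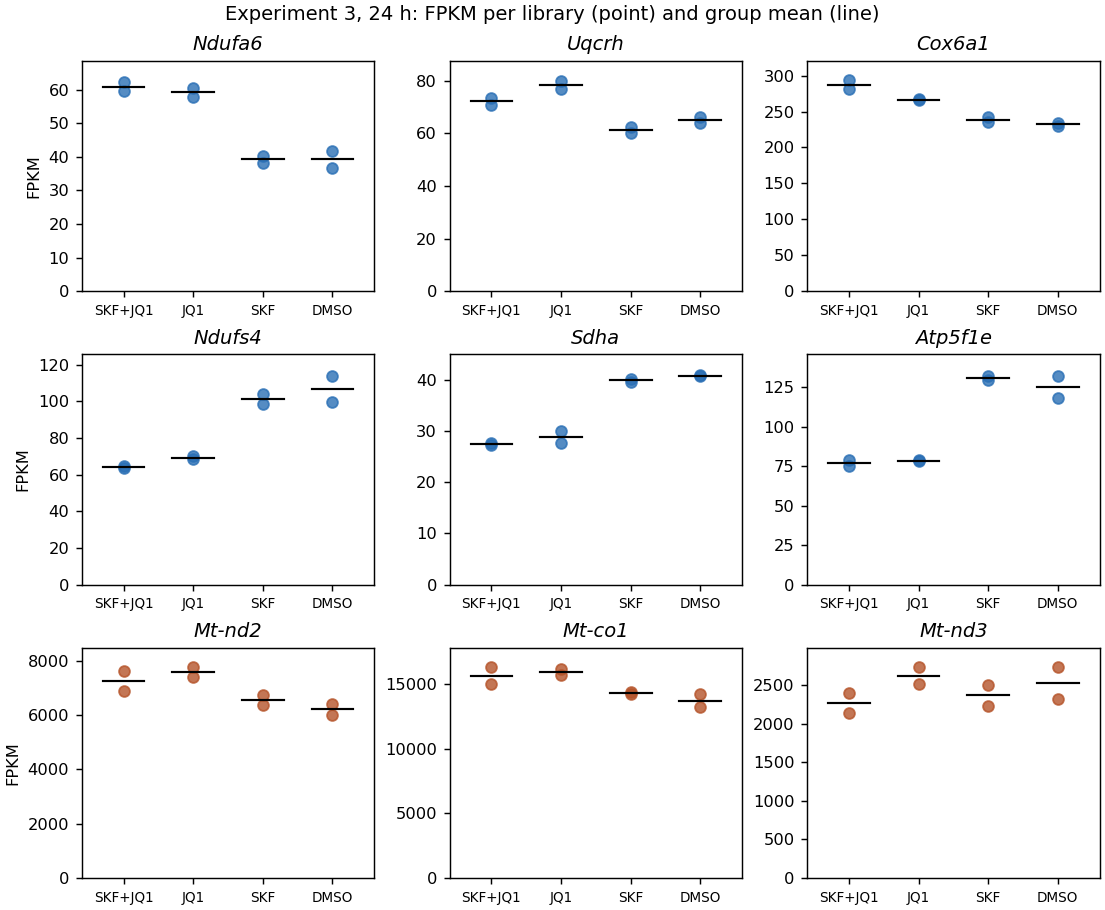
FPKM per library of 9 genes at 24 h with SKF+JQ1, JQ1, SKF and DMSO; points are libraries and lines are means. Ndufa6, Uqcrh and Cox6a1 are higher and Ndufs4, Sdha and Atp5f1e lower in all JQ1-treated libraries, while Mt-nd3 overlaps between groups.

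The comparison of SKF+JQ1 with SKF at 24 h shares no library with that of JQ1 with DMSO. It called 41 of 91 nuclear genes (56.4% of all genes, 27.7% higher and 28.7% lower), 12 higher and 29 lower. On the deposited FPKM scale 8 were higher and 33 lower, and with scaling to genes off chromosome MT 5 were higher and 41 lower. Across both comparisons 11 genes were higher in both, 27 lower in both and 0 called in opposite directions, and 78 of 91 changes had the same sign. Over all 13999 genes, 23.4% were higher in both, 24.2% lower in both and 0 genes were called in opposite directions, and 88.6% had the same sign. The changes correlated with Pearson's r = 0.906 and Spearman's rho = 0.883 over the 91 genes, and with r = 0.908 and rho = 0.912 over all genes, which are not independent replicates. The likeness of both comparisons is therefore shared with genes in general.

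The leading genes had like values with the agonist present. Ndufa6 had 59.5 and 62.2 FPKM with SKF+JQ1, against 40.4 and 38.3 FPKM with SKF (0.69 ± 0.05, adjusted p = 1.1e-08). Atp5f1e had 78.7 and 74.9 FPKM with SKF+JQ1, against 132 and 129 FPKM with SKF (-0.69 ± 0.06, adjusted p = 1e-07). Ndufs4 had 63.6 and 64.9 FPKM with SKF+JQ1, against 104 and 98.9 FPKM with SKF (-0.59 ± 0.07, adjusted p = 4e-06). In all 3 genes the groups stood apart by far more than the spread within them. Sdha had 27.6 and 27.4 FPKM with SKF+JQ1, against 40.2 and 39.7 FPKM with SKF (-0.46 ± 0.05, adjusted p = 2.6e-07). Cox6a2 had 3.07 and 3.73 FPKM with SKF+JQ1, against 7.55 and 8.43 FPKM with SKF (-1.07 ± 0.17, adjusted p = 5.9e-05), the largest fall among the nuclear genes.

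None of the mitochondrial mRNAs was called with SKF+JQ1 against SKF (0 by limma with 3 at unadjusted p under 0.05, and 3 by limma voom on estimated reads). Their median log2 change was 0.19, and all 13 were above 0. Mt-nd2 came closest, with 7626 and 6878 FPKM with SKF+JQ1, against 6724 and 6378 FPKM with SKF (0.22 ± 0.09, adjusted p = 0.051). The groups did not overlap for Mt-nd2, and for Mt-nd3 they did (0.01 ± 0.11). After size factors 11 of the 13 mRNAs did not overlap (84.6%, against 78.4% of all genes). A test of the difference between both JQ1 effects called 0 of the nuclear and 0 of the mitochondrial genes (0.0429% of all genes), with 2 nuclear genes at unadjusted p under 0.05. For Cox6a2 that difference was -0.45 ± 0.24 (adjusted p = 0.88), so its larger fall with SKF was not shown to differ.

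**Figure D5:**
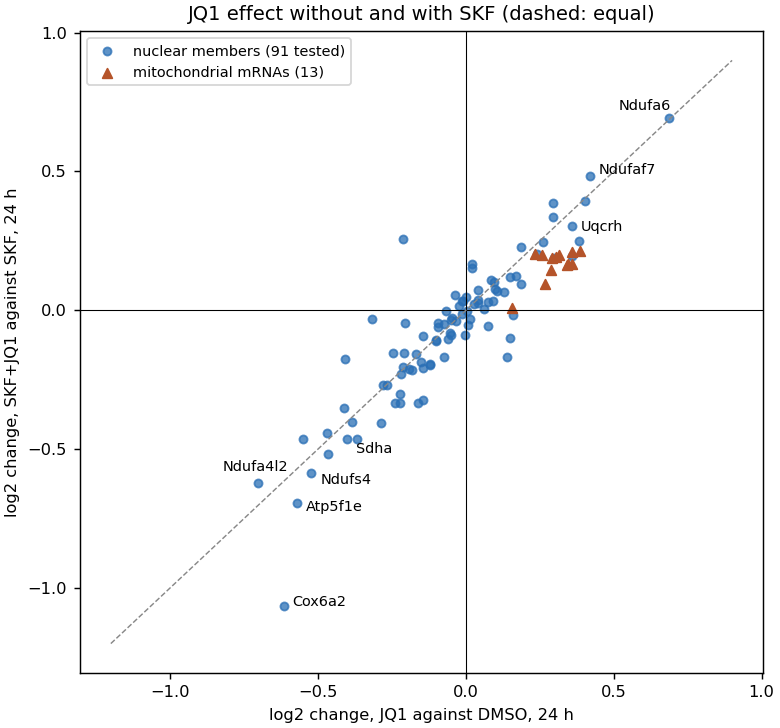
Log2 change at 24 h with JQ1 against DMSO (x axis) and with SKF+JQ1 against SKF (y axis) for 91 nuclear genes and 13 mitochondrial mRNAs. The dashed line marks equal changes; 78 of the 91 nuclear genes have the same sign on both axes, and the mitochondrial mRNAs lie right of the line.

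At 60 min JQ1 left almost all of these genes uncalled. Against DMSO 1 of 91 nuclear genes passed the test (4.4% of all genes did). It was Ndufaf1, with 4.51 and 4.89 FPKM with JQ1, against 6.06 and 5.90 FPKM with DMSO (-0.29 ± 0.07, adjusted p = 0.028), and its groups did not overlap, as for 41.4% of all genes. Without DMSO replicate 6 or JQ1 replicate 5 of experiment 1 the count was 0, and without DMSO replicate 5 it was 8. The next by p were Ndufaf4 (-0.27, adjusted p = 0.092), Ndufb4 (0.16, adjusted p = 0.12) and Cox6c (0.14, adjusted p = 0.23). Of the mitochondrial genes 0 were called by limma and 0 had an unadjusted p under 0.05; Mt-nd2 had 0.12 ± 0.09 (adjusted p = 0.63).

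With SKF+JQ1 against SKF at 60 min, 1 of 91 nuclear genes was called (6.54% of all genes). This was Atp5pf, with 17.7 and 17.1 FPKM with SKF+JQ1, against 15.3 and 14.5 FPKM with SKF (0.22 ± 0.06, adjusted p = 0.026). Its groups did not overlap, as for 45.5% of all genes (3261 above and 3112 below, scaled). Of the 91 nuclear genes 62.6% did not overlap, 49 above and 8 below. For JQ1 against DMSO at 60 min that share was 30.8%, 24 above and 4 below, against 41.4% of all genes. A shared shift of the nuclear genes at 60 min was not tested. Another 23 genes missed the adjusted threshold with an unadjusted p under 0.05, which 17.5% of all genes had, among them Ndufb3 (0.26, adjusted p = 0.052), Ndufaf4 (-0.28, adjusted p = 0.055) and Cox5a (0.23, adjusted p = 0.057). The count was 0 without SKF replicate 6 or SKF+JQ1 replicate 5 of experiment 1, and 6 without either DMSO library of that experiment. It was 3 without either DMSO library and 2 without either JQ1 library of experiment 3. Those libraries enter only through the shared spread, the size factors and the filter on low values. Of the mitochondrial genes 0 were called, and their median change was -0.09. All 13 mitochondrial mRNAs were below 0 in this comparison and above 0 with JQ1 against DMSO at 60 min. A shared direction of these mRNAs thus arose in opposite senses without a call.

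The JQ1 effect at 24 h differed from that at 60 min for 28 nuclear genes, 8 higher and 20 lower (36.6% of all genes, 17% higher and 19.6% lower), and for 0 mitochondrial genes. Time and experiment cannot be told apart in this difference. For Ndufa6 it was 0.60 ± 0.07 (adjusted p = 1.1e-05), for Atp5f1e -0.63 ± 0.09 (adjusted p = 4.3e-05) and for Sdha -0.46 ± 0.06 (adjusted p = 3.7e-05). Ndufaf1, the gene called at both times, was not among the 28. The largest mitochondrial value by p was Mt-nd2, at 0.26 ± 0.13 (adjusted p = 0.11), and without DMSO replicate 5 of experiment 1 the mitochondrial count was 9.

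iBD2 called none of these genes at 60 min: 0 nuclear and 0 mitochondrial genes passed against DMSO (0.171% of all genes), with 4 nuclear genes higher and 3 lower and 0 mitochondrial genes at unadjusted p under 0.05; voom also called 0. The nearest were Cox6b1 (0.19 ± 0.06, adjusted p = 0.43) and Ndufb7 (0.35, adjusted p = 0.5). That value is for the less abundant of 2 genes named Cox6b1, and the other had 0.13 ± 0.06 (adjusted p = 0.74). Mt-nd2 had 0.14 ± 0.09 (adjusted p = 0.87), close in size to its value with JQ1. SKF+iBD2 against SKF, with a lone library whose spread was taken from the other groups, also called 0 (0.0214% of all genes, 5 nuclear genes at unadjusted p under 0.05); Ndufa3 had -0.26 ± 0.06 (adjusted p = 0.37). The JQ1 effect minus the iBD2 effect at 60 min called 0 of these genes (0.907% of all genes, 5 nuclear at unadjusted p under 0.05), with Ndufaf1 at -0.28 ± 0.10 (adjusted p = 0.36). That the 2 inhibitors act alike is not shown by this, since they were used in separate experiments.

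The D1 agonist alone called none of these genes. At 60 min SKF against DMSO gave 0 calls over experiments 1 and 2 together (3.98% of all genes, 4 nuclear genes at unadjusted p under 0.05), 0 in experiment 1 (1.71% of all genes) and 0 in experiment 2 (2.32%), and at 24 h it gave 0 (1.49% of all genes, 8 nuclear genes at unadjusted p under 0.05). At 24 h Ndufa9 came closest, with 59.3 and 60.4 FPKM with SKF, against 55.6 and 52.5 FPKM with DMSO (0.15 ± 0.04, adjusted p = 0.075). Cox6b2 had 4.02 and 3.93 FPKM with SKF at 24 h, against 5.97 and 5.38 FPKM with DMSO (-0.46 ± 0.13, adjusted p = 0.13). Its fall with JQ1 was measured against the same DMSO libraries. In both genes the groups did not overlap, as for 38% of all genes. Cox6b2 was the single nuclear gene whose SKF effect differed between 24 h and 60 min (2.45% of all genes), by -0.67 ± 0.16 (adjusted p = 0.034). The call was lost without any 1 of 9 of the libraries that enter it: either DMSO library of experiments 1 and 3, either SKF library of experiment 3, SKF replicate 6 of experiment 1, and DMSO replicate 1 and SKF replicate 2 of experiment 2. The interactions of SKF with JQ1 and with iBD2 at 60 min called 0 of these genes (0.00714% and 0.0143% of all genes).

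Genes that serve the chain without belonging to it were read from lists of regulators, assembly factors and carbon entry. Of 24 tested regulators of mitochondrial transcription and biogenesis, JQ1 at 24 h raised 8 and lowered 1, and with SKF present 7 and 2. Polg, the mitochondrial DNA polymerase, had 5.53 and 5.40 FPKM with JQ1, against 3.69 and 3.27 FPKM with DMSO (0.67 ± 0.09, adjusted p = 5.4e-06), with no overlap. Polrmt, the mitochondrial RNA polymerase, rose by 0.44 ± 0.10 (adjusted p = 0.0015), Gabpb1, a subunit of the factor that binds the ETS core, by 0.36 (adjusted p = 0.00032), and Nrf1 by 0.24 ± 0.07 (adjusted p = 0.011). Ppargc1a, a coactivator of mitochondrial biogenesis (0.18 ± 0.10, adjusted p = 0.11), and Tfam, which packages mitochondrial DNA (0.06 ± 0.07, adjusted p = 0.48), did not pass the test.

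Of 45 tested assembly factors and electron carriers outside the naming rule, 13 rose and 14 fell with JQ1 at 24 h. Cox10, which makes the haem of complex IV, had 3.68 and 3.61 FPKM with JQ1, against 7.37 and 8.10 FPKM with DMSO (-0.90, adjusted p = 4e-08). Ttc19, an assembly factor of complex III, had 27.0 and 26.5 FPKM with JQ1, against 14.9 and 15.7 FPKM with DMSO (0.88, adjusted p = 3e-09). On the log2(FPKM + 0.5) scale both changes were larger than that of any member of the chain in the same comparison. That scale understates changes of low genes such as Ndufa4l2, so the ranking holds on it alone. The groups did not overlap for Cox10 or Ttc19. Of 23 tested genes of the citric acid cycle and pyruvate entry, 5 rose and 6 fell. Pdk3, a kinase that switches off pyruvate dehydrogenase, had 28.7 and 28.8 FPKM with JQ1, against 15.0 and 15.5 FPKM with DMSO (0.99, adjusted p = 6.2e-10), while its relative Pdk2 fell by 0.68 (adjusted p = 2.2e-06). Set against the 56.7% called among all genes, none of these counts stands far above the background. At 60 min the same lists had 1 higher and 1 lower regulator and no other call (JQ1 against DMSO called 4.4% of all genes). Polg rose by 0.44 ± 0.09 (adjusted p = 0.0051) and Mterf1, named for mitochondrial transcription termination, fell by 0.53 ± 0.10 (adjusted p = 0.0023).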

How the data were processed

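Total RNA of 23 libraries was sequenced after rRNA depletion with a stranded kit, per the labels. The deposited tables, 1 per library, give FPKM and coverage per transcript. The submitters' processing notes name Trim Galore, FastQC, STAR, StringTie, DESeq2 and the build Rnor_6.0, with no versions. The authors' FPKM values were summed by gene and divided by median-ratio size factors. Genes with at least 0.5 FPKM in at least 2 libraries and a transcript of at least 200 nt were tested (13999 genes). With its trend and robust options, limma 3.58.1 (R 4.3.3) was fitted to log2(FPKM + 0.5) with 1 mean for each of 12 groups and 11 residual degrees of freedom, over 16 comparisons. Tests were two-sided, with Benjamini-Hochberg adjustment over all genes and calls at an adjusted p under 0.05. The fit was tested on simulated data. Fold changes are on the log2(FPKM + 0.5) scale. Aligned bases were derived from the deposited coverage and FPKM, so depth is an estimate that covers no biological variation. FPKM is a share of each library, so a rise of some genes lowers the others unless size factors correct for it.

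Text names all mitochondrial mRNAs, in each comparison up to 10 called nuclear genes in each direction by size (or the 4 of smallest p where fewer than 4 were called), subunits standing for each complex, and up to 3 genes of each related list plus Ppargc1a, Nrf1, Tfam and Polrmt. Some items that the rule names are not reported here. The members and lists were chosen with earlier results of these data known. Alternatives covered scaling, pseudocount, both filters, a replicate block, separate fits, voom on estimated reads, and leaving out each library. One SKF+iBD2 library was not analysed here.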

Additional observations from a re-analysis of the deposited data

Results flagged for a closer look

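The difference between the JQ1 effects at 24 h and at 60 min was tested directly, and it passed for 28 nuclear genes, of which genes named by size of change are given here. Differences are log2 changes, 24 h minus 60 min, and time and experiment cannot be told apart in them. Higher at 24 h were Ndufa6 (0.6), Ndufaf7 (0.44), Ndufv3 (0.38), Ndufa7 (0.28), Uqcrh (0.27), Atp5f1d (0.24), Cox6a1 (0.24) and Ndufb10 (0.21). Lower at 24 h were Ndufa4l2 (-0.75), Cox6b2 (-0.66), Atp5f1e (-0.63), Ndufs8 (-0.56), Ndufb4 (-0.54), Ndufs4 (-0.54), Sdha (-0.46), Ndufb6 (-0.42) and Ndufa9 (-0.39). The SKF effect at 24 h minus that at 60 min passed for Cox6b2 (-0.67). Groups of 2 libraries are too small to look for a single library far from the rest.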

How the results depend on the processing

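The libraries of a group share replicate numbers with other groups, but the labels give them no shared source, and deviations of same-numbered libraries within an experiment correlated at -0.27 to 0.37. With the replicate block, the count of nuclear genes for JQ1 at 60 min was 0, of mitochondrial genes for SKF+JQ1 against SKF at 24 h 6 and for JQ1 at 24 h minus 60 min 1, and of nuclear genes for SKF at 24 h minus 60 min 0. JQ1 at 24 h gave 42 to 56 nuclear calls under the settings other than leaving out a library, and 32 to 46 when each library was left out in turn; SKF+JQ1 against SKF gave 39 to 46 and 34 to 42. Mitochondrial calls for JQ1 at 24 h were 4 with FPKM as deposited, 0 with scaling to genes off chromosome MT and 1 to 13 leaving out a library. Those for SKF+JQ1 at 24 h were 2 without the length filter, 3 by voom and 0 to 3 leaving out a library; those for JQ1 at 24 h minus 60 min were 1 without the length filter and 0 to 9. Nuclear calls for JQ1 at 60 min were 2 with FPKM as deposited, 2 with scaling to genes off chromosome MT, 0 in a separate fit and 0 to 8 leaving out a library; for SKF+JQ1 at 60 min 3 by voom, 0 in a separate fit and 0 to 6; for SKF at 60 min over both experiments 0 to 1. The Cox6b2 call for SKF at 24 h minus 60 min became 0 with FPKM as deposited, with scaling to genes off chromosome MT, without the filter on low values and by voom, and 0 to 1 leaving out a library. Atp5f1c turned to 0.10 with JQ1 and 0.0224 with SKF+JQ1 at 24 h by voom. The causes were not tested.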

Other observations

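The long transcript of Atp5f1c (5682 nt) stood higher with JQ1 at 24 h. At 24 h it had 8.52 and 8.26 FPKM with SKF+JQ1, against 5.09 and 5.39 FPKM with SKF. At 60 min in experiment 1 it had 4.92 and 5.11 FPKM with JQ1, against 4.90 and 4.86 FPKM with DMSO. These transcript values were not tested.

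The nuclear genes that rose with JQ1 at 24 h had a median longest transcript of 534 nt (14 genes), and those that fell had 899 nt (30 genes). Over all 91 tested nuclear genes the log2 change and the length had a Spearman's rho of -0.087, across genes that are not independent.

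Coq8a, a kinase-like protein of coenzyme Q synthesis, rose by 0.81 with JQ1 at 24 h (adjusted p = 7.4e-08), and Pc, which feeds the citric acid cycle from pyruvate, rose by 0.72 (adjusted p = 3.7e-08).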
